A study of Zea mays with 6 samples.

Results

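Tubulin transcripts were compared between leaf tissue without and with chlorophyll on Affymetrix maize arrays. Every probe set paired with exactly 1 gene was taken whose symbol or RefSeq synonym is tua, tub or tuba followed by a number. The rule gave 16 of 17555 probe sets, for 10 genes: 6 probe sets for 4 alpha-tubulin genes (TUA1, tua4, tua5 and tua6) and 10 for 6 beta-tubulin genes (TUB2, tub3, tub4, tub5, tub6 and tub7). The plants were maize of line A661, held at 15 °C for 3 weeks and then moved to 25 °C for 1 week. Light was 228 µmol per square metre and second for 14 h, with 10 h of dark, for all samples. Leaf 3 then had a distal part lacking chlorophyll (CL) and a proximal part with chlorophyll (CC, the control), and 2 cm of each next to the border were taken, with 3 biological replicates per section. All samples share the line and both temperature periods. Every CL piece lay nearer the tip than its CC counterpart, so the temperature at which the tissue formed may differ as well. Chlorophyll content, position, developmental age and that temperature cannot be told apart.

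Alpha- and beta-tubulin pair into the dimer from which microtubules are built, and plants encode each in several genes that are used to different degrees in different organs. In growing leaf cells, microtubules under the plasma membrane guide the cellulose synthase complexes that lay down the wall. In dividing cells they form the preprophase band, the spindle and the phragmoplast, and maize leaves grow from their base, so that tissue age rises toward the tip.

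Values below are RMA expression on a log2 scale as deposited, given for replicates 1, 2 and 3 in that order, and a change is CL minus CC. The leaf markers were bright in both sections: pep1, the phosphoenolpyruvate carboxylase of mesophyll cells, averaged 13.27 ± 0.02 in CL, against 13.22 ± 0.05 in CC (SD over 3 arrays), and me3, the NADP-malic enzyme of bundle sheath cells, 13.17 ± 0.04 in CL and 13.14 ± 0.01 in CC. Array medians lay at 6.31 to 6.36 in CL and 6.29 to 6.30 in CC. Lower quartiles lay at 3.95 to 3.97 in CL and 4.04 to 4.15 in CC. Upper quartiles lay at 8.37 to 8.38 in CL and 8.27 to 8.32 in CC, so the distributions differed slightly away from their medians. Arrays of a section differed from each other with an SD of log2 differences of 0.251 to 0.387, and with 3 arrays a section their number limits the precision.

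Most tubulin signals were lower in the tissue without chlorophyll. Of the 16 probe sets, 11 fell, 0 rose and 5 did not pass a limma adjusted p of 0.05, while 15.2% of all probe sets fell and 15.9% rose, together 31.1%. At an unadjusted p of 0.05, 0 of the 16 rose as well. At least 2-fold falls were found for 6 of the 16, against 2.56% of all probe sets. The median change was -0.76 over the 16 and -0.05 over all probe sets. The values of the sections did not overlap in 12 of the 16, all of them lower in CL, a state found in 26.8% of all probe sets. By gene, with the brightest probe set of each, 7 of 10 fell. Tubulin genes resemble each other in sequence, so probe sets may share target transcripts and the 16 are not independent. RNA from whole leaf pieces was measured, in which fewer cells of a type and less RNA per cell cannot be told apart.

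**Figure D1:**
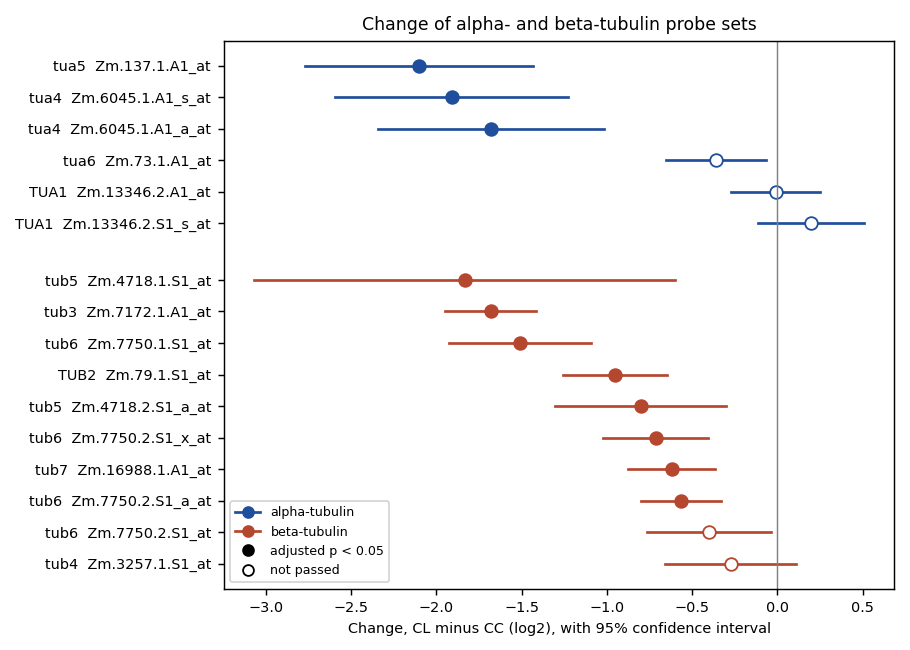
Change of each tubulin probe set (CL minus CC, log2) with its 95% confidence interval from limma, alpha-tubulins above and beta-tubulins below. Filled points passed an adjusted p of 0.05. The 3 filled alpha points lie between -2.10 and -1.68, the filled beta points between -1.83 and -0.57, and both TUA1 intervals span 0.

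The alpha-tubulins split into genes with large falls and genes with little or no change. The largest fall of all 16 was that of tua5 (NCBI gene 542248, probe set Zm.137.1.A1_at), which read 6.05, 6.03 and 6.08 in CL, against 8.62, 7.45 and 8.40 in CC. The CL arrays were almost equal and all lay more than 1 log2 unit below the lowest CC array, CC replicate 2. The change of tua5 was -2.10 (SE 0.28, limma adjusted p = 0.00394), a 4.29-fold lower signal in CL.

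The gene tua4 (NCBI gene 542413) has 2 probe sets. The probe set Zm.6045.1.A1_a_at read 7.35, 7.49 and 7.25 in CL, against 9.34, 8.34 and 9.44 in CC, and Zm.6045.1.A1_s_at read 7.20, 7.34 and 7.19 in CL, against 9.56, 8.43 and 9.48 in CC. In both, the sections were apart and CC replicate 2 stood about 1 log2 unit below the other CC arrays. The change of tua4 was -1.68 (SE 0.28, limma adjusted p = 0.00689) in Zm.6045.1.A1_a_at and -1.91 (SE 0.29, limma adjusted p = 0.00529) in Zm.6045.1.A1_s_at. The suffix _s_at marks, in Affymetrix naming, probes shared by transcripts of different genes. This tua4 entry was not found in the RefSeq table, where another gene carries the name tua4.

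The gene tua6 (NCBI gene 542582, Zm.73.1.A1_at) read 8.43, 8.51 and 8.45 in CL, against 9.02, 8.57 and 8.88 in CC. Its sections did not overlap, with CC replicate 2 only slightly above the highest CL array. The change of -0.36 (SE 0.12, limma adjusted p = 0.0657) did not pass. It was -0.49 with an adjusted p of 0.0292 when CC replicate 2, the lowest CC array, was left out. With any other single array left out it was -0.38 to -0.26 and did not pass (adjusted p of 0.123 to 0.165).

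The gene TUA1 (NCBI gene 100037751) had no detectable change. Its probe set Zm.13346.2.S1_s_at read 6.20, 6.05 and 6.32 in CL, against 6.09, 6.13 and 5.75 in CC, and Zm.13346.2.A1_at read 4.55, 4.67 and 4.32 in CL, against 4.52, 4.47 and 4.58 in CC. The sections overlapped in both. The change was 0.20 (95% confidence interval -0.11 to 0.51, limma adjusted p = 0.281) in Zm.13346.2.S1_s_at and -0.01 (-0.27 to 0.25, limma adjusted p = 0.955) in Zm.13346.2.A1_at. Falls of the size seen in tua4 and tua5 therefore lie outside both intervals. In RefSeq, TUA1 lies next to TUA2 and both carry the same older gene model name, so a shared-transcript probe set of TUA1 may read TUA2 as well.

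**Figure D2:**
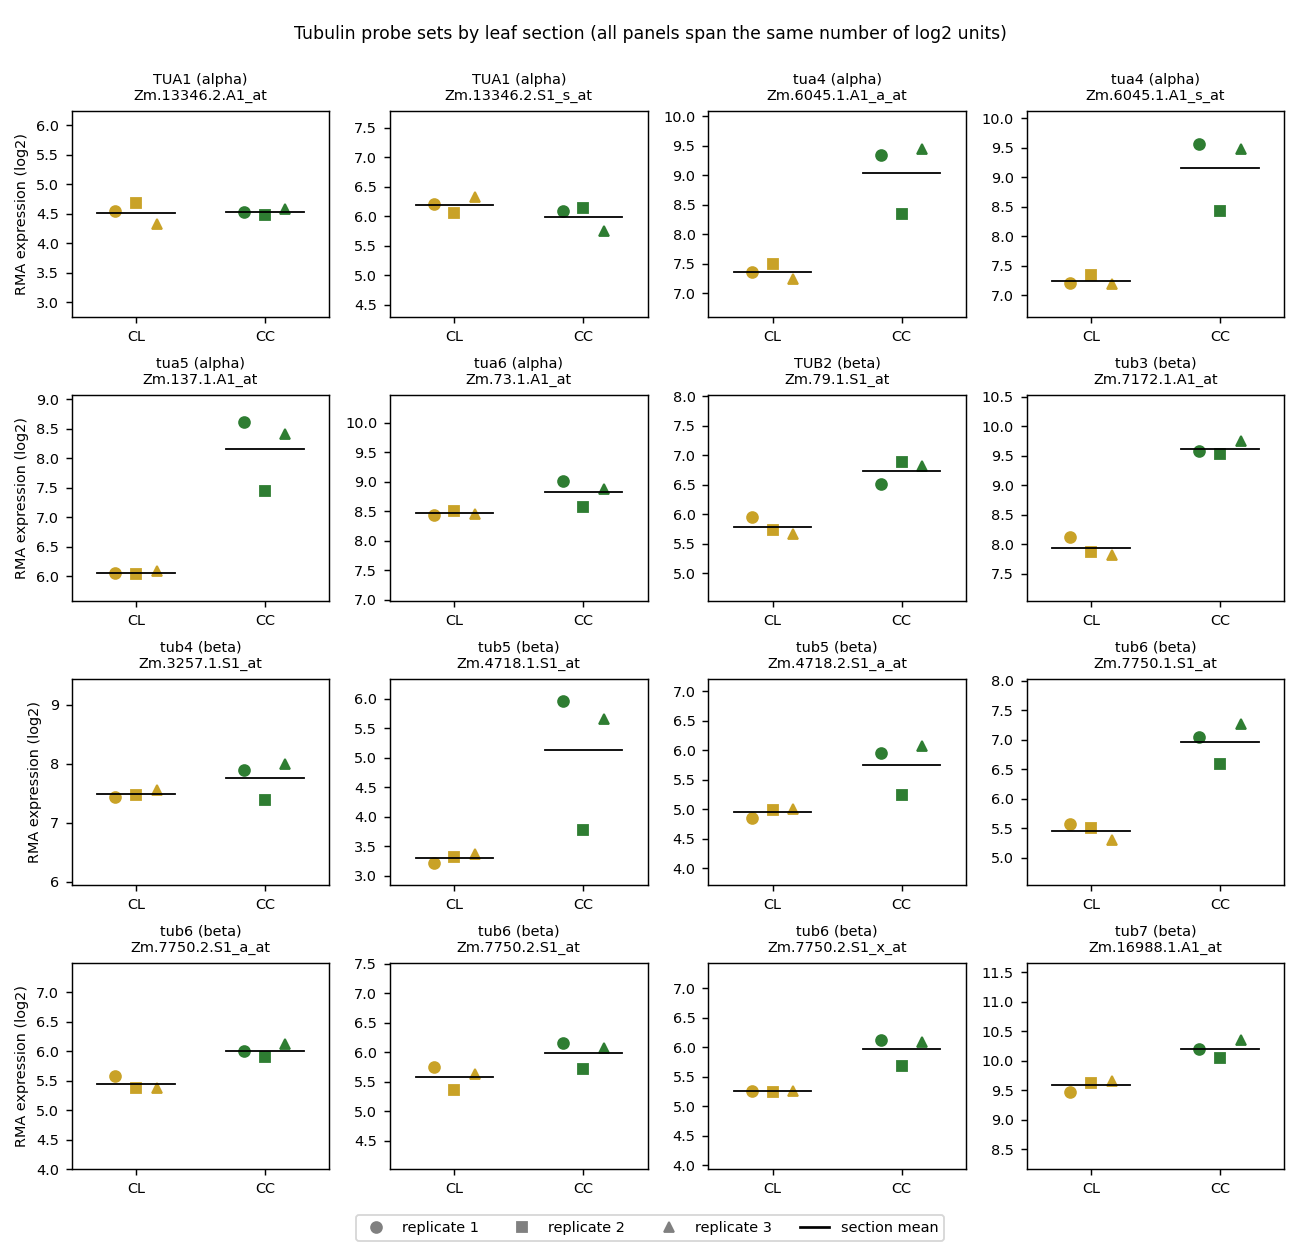
RMA expression (log2) of each tubulin probe set in CL (left) and CC (right), 1 panel per probe set, with symbols for the replicates and a line at the section mean. All panels span the same number of log2 units but start at different levels. CC replicate 2 (green square) is the lowest CC array in 14 of 16 panels, and the sections overlap in both TUA1 panels, in tub4 and in the tub6 probe set Zm.7750.2.S1_at.

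Among the beta-tubulins, tub3 (NCBI gene 542416, Zm.7172.1.A1_at) had the smallest p of all 16 probe sets. It read 8.13, 7.87 and 7.83 in CL, against 9.59, 9.54 and 9.75 in CC. Replicates of either section lay within 0.303 log2 units of each other, and the sections were far apart. The change was -1.68 (SE 0.11, limma adjusted p = 0.000989), a 3.21-fold lower signal in CL. Its size hardly depended on single arrays, with -1.77 to -1.62 when each array was left out in turn.

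The gene TUB2 (NCBI gene 542380, Zm.79.1.S1_at) read 5.95, 5.73 and 5.67 in CL, against 6.51, 6.88 and 6.82 in CC. All CL arrays lay below all CC arrays, and here CC replicate 1 was the lowest of its section. TUB2 changed by -0.95 (SE 0.13, limma adjusted p = 0.00408). The gene tub7 (NCBI gene 542705, Zm.16988.1.A1_at) read 9.46, 9.63 and 9.65 in CL, against 10.20, 10.05 and 10.36 in CC. The sections were apart by a smaller step, with a change of -0.62 (SE 0.11, limma adjusted p = 0.00794), a 1.54-fold lower signal in CL.

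The gene tub4 (NCBI gene 542417, Zm.3257.1.S1_at) read 7.43, 7.47 and 7.56 in CL, against 7.90, 7.39 and 7.99 in CC. The sections overlapped because CC replicate 2 fell below all CL arrays. The change of -0.27 (95% confidence interval -0.66 to 0.11, limma adjusted p = 0.234) did not pass. Without CC replicate 2 it was -0.46 with an adjusted p of 0.0336, so 1 array decides this call. Without CC replicate 3 the change was -0.16 (adjusted p = 0.522), and with arrays weighted by their quality it was -0.04 (adjusted p = 0.812).

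The gene tub5 (NCBI gene 542418), which also carries the name tub8, was represented by a dim probe set and a somewhat brighter one. The dim one, Zm.4718.1.S1_at, read 3.21, 3.32 and 3.37 in CL, against 5.97, 3.78 and 5.65 in CC. Its CL mean lay at the 15.6th percentile of all probe sets in that section, and CC replicate 2 was closer to the CL arrays than to the other CC arrays. The change was -1.83 with a wide 95% confidence interval of -3.07 to -0.60 (limma adjusted p = 0.0370). Zm.4718.2.S1_a_at read 4.86, 4.98 and 5.004 in CL, against 5.95, 5.24 and 6.07 in CC, with a change of -0.80 (SE 0.21, limma adjusted p = 0.0292). The calls of tub5 were the weakest of the 11. Leaving out any array other than CC replicate 2 ended both, with adjusted p of 0.0740 to 0.107 for the dim probe set and 0.0663 to 0.0818 for the other. Without CC replicate 2 the changes were -2.51 and -1.06.

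The gene tub6 (NCBI gene 542239) has 4 probe sets, which differed in the size of their change. Zm.7750.1.S1_at read 5.57, 5.50 and 5.31 in CL, against 7.05, 6.59 and 7.26 in CC, with a change of -1.51 (SE 0.18, limma adjusted p = 0.00282). The other 3, numbered Zm.7750.2, changed by much less. Zm.7750.2.S1_x_at read 5.26, 5.24 and 5.26 in CL, against 6.12, 5.68 and 6.10 in CC, with a change of -0.71 (SE 0.13). Zm.7750.2.S1_a_at read 5.57, 5.38 and 5.38 in CL, against 6.01, 5.90 and 6.12 in CC, with a change of -0.57 (SE 0.10). Both fell, with limma adjusted p of 0.00907 and 0.00799. Zm.7750.2.S1_at read 5.75, 5.37 and 5.63 in CL, against 6.16, 5.71 and 6.07 in CC. Its sections overlapped and its change of -0.40 (SE 0.15, limma adjusted p = 0.0877) did not pass. Without CC replicate 2, its lowest CC array, it was -0.54 with an adjusted p of 0.0498. With any other single array left out it was -0.48 to -0.29 and did not pass (adjusted p of 0.0800 to 0.228). Array weights gave -0.24 (adjusted p = 0.137).

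Whether probe sets of 1 gene changed by different amounts was tested on their difference within each array. For tub6, Zm.7750.1.S1_at minus Zm.7750.2.S1_at was -0.18, 0.13 and -0.33 in CL, against 0.89, 0.88 and 1.19 in CC. This difference lay around 0 in CL and was positive in CC on all 3 arrays. The change of this difference was -1.11 (95% confidence interval -1.45 to -0.77, limma adjusted p = 0.00667 over 536 pairs of probe sets from 222 genes). The differences of Zm.7750.1.S1_at from Zm.7750.2.S1_a_at and Zm.7750.2.S1_x_at changed by -0.94 and -0.80, both with a limma adjusted p of 0.00709. These tub6 pairs all share the error of Zm.7750.1.S1_at and are not independent of each other. Of all 536 pairs, 15.3% passed. Among the 3 Zm.7750.2 probe sets no pair passed, with differences in change of 0.15 to 0.31. The probe sets of tub5 differed in change by 1.03 (95% confidence interval 0.22 to 1.84, limma adjusted p = 0.0837), those of tua4 by 0.23 (0.03 to 0.43, adjusted p = 0.108) and those of TUA1 by 0.21 (-0.25 to 0.67, adjusted p = 0.502), and none of these passed.

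**Figure D3:**
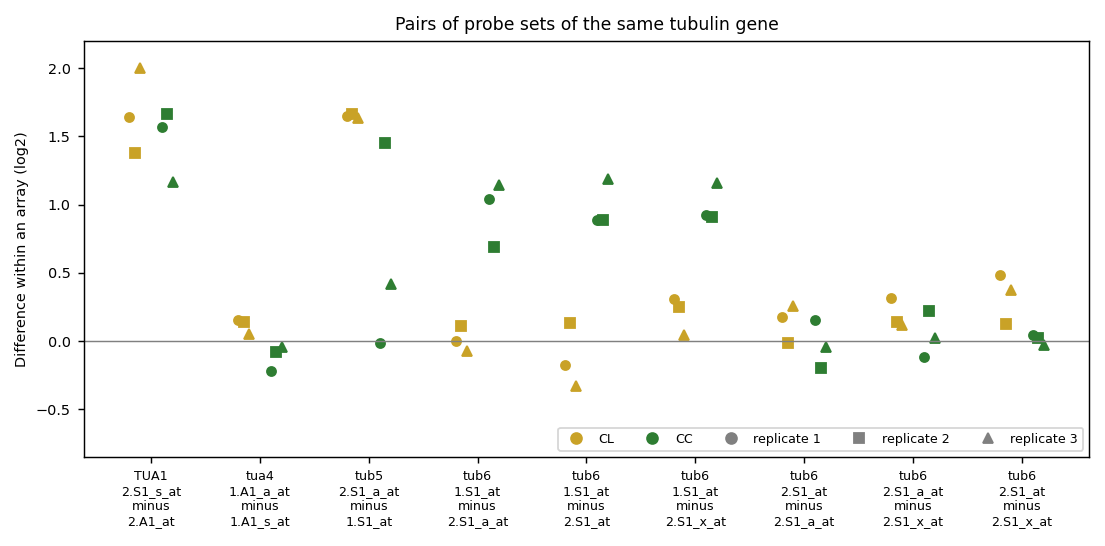
Difference between 2 probe sets of the same tubulin gene within each array (log2), CL left and CC right in each pair, with symbols for the replicates. In the 3 pairs of tub6 that hold Zm.7750.1.S1_at the CC arrays lie above all CL arrays, while in the TUA1 pair the sections overlap.

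The size of the change was also compared between probe sets of different isoforms. The brightest probe set of TUA1 was subtracted from tub3 within each array, which gave 1.93, 1.82 and 1.51 in CL, against 3.50, 3.41 and 3.996 in CC. The sections were apart on all arrays, with a difference in change of -1.88. An exact two-sided permutation test gave p = 0.1, the smallest that 3 arrays against 3 allow, so it cannot reach 0.05. The changes of tub3 and TUA1 have 95% confidence intervals that do not overlap. The same test of tub3 against each of the other 15 tubulin probe sets reached 0.1 in 10 cases (adjusted p = 0.15 over 24 tests, which include 9 pairs of probe sets of the same gene). In these 10, tub3 had the larger fall, with differences in change of -1.88 to -0.73. For both probe sets of tua4, for tua5, for the dim probe set of tub5 and for Zm.7750.1.S1_at of tub6 the exact p against tub3 lay between 0.4 and 1, with differences in change of -0.17 to 0.42. These tests leave room for differences either way. Probe sets of 1 gene also differed in change, by -1.11 to -0.80 in the tub6 pairs that hold Zm.7750.1.S1_at. Differences of that size therefore need not be differences between isoforms.

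One control array stood out across the tubulins. CC replicate 2 was the lowest of the 3 CC arrays in 14 of 16 tubulin probe sets, in 27.7% of all probe sets and in 22.2% of those that fell in CL. The values were also less spread in CL, with a median SD of 0.108 in CL and 0.244 in CC and a smaller SD in CL for 13 of 16. Over all probe sets the median SD was 0.122 in CL and 0.134 in CC, and the SD was smaller in CL for 53.9%. Both traits were also seen on the cell wall growth list described below, where CC replicate 2 was the lowest CC array in 15 of 26 genes and the SD was smaller in CL for 20 of 26, with medians of 0.129 in CL and 0.249 in CC. On the actin list CC replicate 2 was the lowest CC array in 2 of 9. Without CC replicate 2, 14 of the 16 tubulin probe sets fell, and 9 fell when any other single array was left out.

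The list of other microtubule genes held 12, for kinesins, gamma-tubulins, the division plane gene tan1 and brk1. The gene brk1 acts in actin nucleation, so it is counted here by the list's naming rule only, and it did not pass. Of the 12, 4 fell (33.3%) and 0 rose, against 15.2% and 15.9% of all probe sets, and 8 did not pass. At an unadjusted p of 0.05, 0 of the 12 rose as well. The median change was -0.23. In 8 of the 12 the sections did not overlap and CL was lower, a state found in 26.8% of all probe sets. The 8 that did not pass lay between -0.28 for the kinesin gene KIN9 and 0.27 for the gamma-tubulin gene TUBG2, with -0.03 for tan1. The signal of tan1 was low, at the 7.58th percentile of all probe sets, so a change could be missed. The kinesin gene kin15 read 6.68, 6.61 and 6.61 in CL, against 7.48, 7.63 and 7.42 in CC, a change of -0.88 (SE 0.09, limma adjusted p = 0.00203). The gamma-tubulin gene tubg1, whose product nucleates microtubules, read 6.14, 6.19 and 6.01 in CL, against 6.66, 6.76 and 6.89 in CC, a change of -0.65 (SE 0.10, limma adjusted p = 0.00512). The sections were apart in both. The kinesin genes KIN6 and KIN8 fell by 0.73 and 0.54 at low signal, at the 23.2nd and 16.6th percentile of all probe sets.

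Of 9 actin cytoskeleton genes, 5 fell and 0 rose, against 15.2% and 15.9% of all probe sets, with a median change of -0.31. At an unadjusted p of 0.05, 0 of the 9 rose as well. The profilin gene prf1, whose product binds actin monomers, read 6.76, 6.18 and 6.07 in CL, against 8.45, 8.16 and 8.61 in CC, a change of -2.07 (SE 0.20, limma adjusted p = 0.00203). The gene myo1, by its name a myosin motor, fell by 0.86 (SE 0.08), PRO4, a further profilin, by 0.53 (SE 0.13) and ADF3, an actin depolymerizing factor, by 0.37 (SE 0.09).

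Of 26 cell wall growth genes, 13 fell and 1 rose, against 15.2% and 15.9% of all probe sets, with a median change of -0.69. The 4 with the smallest p were the alpha-expansin gene expa1 (-2.71), the cellulose synthase genes cesa7 (-1.98) and CesA-4 (-1.50), and the beta-expansin gene expB6 (-2.24). The cell division list of 16 genes also takes in histone genes, kn1 and knox7. Of these 16, 0 fell (2 at an unadjusted p of 0.05) and 3 rose, against 15.2% and 15.9% of all probe sets. The median change was 0.01 beside -0.05 over all probe sets. The share that rose is near that background. Those that rose were the cyclin gene cycD2 (0.73), pcna2, a sliding clamp of DNA replication (0.51), and the cyclin-dependent kinase gene cdc2 (0.39). A further cyclin gene, cycD1, changed by -0.50 and did not pass (limma adjusted p = 0.0597). The cyclin genes cyc1 and cyc3 were dim, at or below the 5.47th percentile of all probe sets. MCM7 was dim too, at the 4.26th percentile, and cyc2 and MCM6 lay at percentiles of 14.1 and 14.0.

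**Figure D4:**
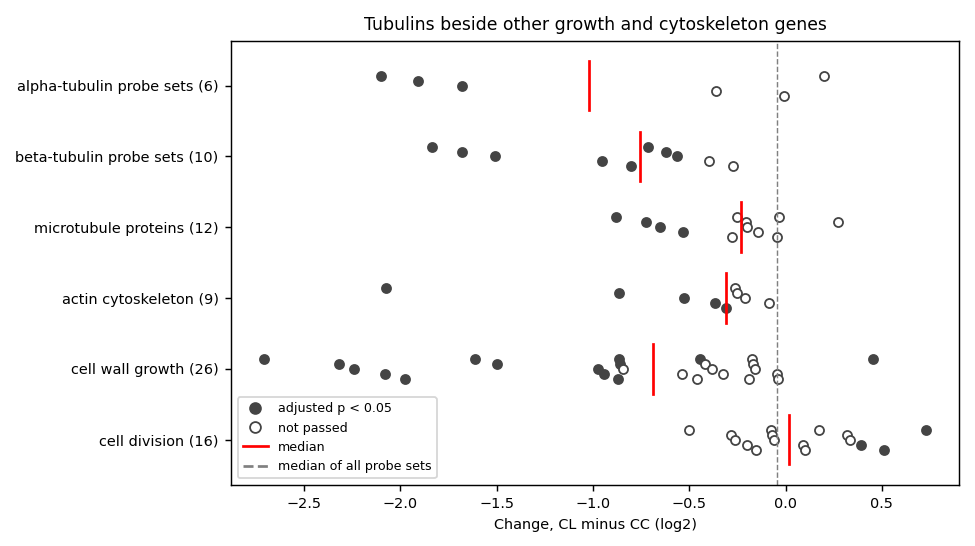
Change (CL minus CC, log2) of the tubulin probe sets and of genes on 4 other lists, each gene by its brightest probe set. Filled points passed an adjusted p of 0.05, red lines are list medians and the dashed line is the median of all probe sets, -0.05. The list medians run from -1.02 for the alpha-tubulins and -0.76 for the beta-tubulins to 0.01 for cell division.

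Markers of leaf cell types are given here beside the tubulins, with lists too short to set their counts apart from the 15.2% of all probe sets that fell and the 15.9% that rose. Of 5 mesophyll markers 0 fell, also at an unadjusted p of 0.05, and 1 rose, with list means of 12.11 to 12.15 in CL and 11.95 to 12.05 in CC. Of 3 bundle sheath markers 1 fell, with means of 12.59 to 12.64 in CL and 12.72 to 12.77 in CC. Apart from ppt1 (78.9th percentile, change 0.75), all markers on these lists lay at or above the 99th percentile of all probe sets. Changes may be hard to see at such high signal. Of 4 epidermis and wax markers 2 fell, with means of 5.95 to 6.22 in CL and 6.48 to 7.06 in CC, led by the wax gene gl1 at -1.73, and of 3 vascular markers 1 fell, with means of 9.06 to 9.25 in CL and 9.14 to 9.53 in CC. The part of cell type shares in the tubulin changes was not tested.

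The genes whose array profile was most like that of tub3 were sought among 1098 genes that are no members of the tubulin set, by the root mean square distance of values centred on each probe set's mean over the 6 arrays. The closest of these were the cytokinin oxidase gene cko3 at 0.144 log2 units, ltk1, by its name a receptor-like kinase gene, at 0.162, the gene LOC542342 at 0.162, CesA-7 (cesa7 above) at 0.181 and GBSSIIa, a granule-bound starch synthase gene, at 0.183. Among the tubulins, the closest was the tub6 probe set Zm.7750.1.S1_at at 0.177, nearer than CesA-7 and GBSSIIa, and TUA1 was the most distant, at 0.844 and 0.966. These distances include the difference between sections, so any gene with a like fall in CL scores as close.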

How the data were processed

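The authors deposited RMA expression values on a log2 scale for 17555 probe sets and 6 arrays. The submitters' processing notes name RMA, Affymetrix Expression Console and limma, with no versions. Background subtraction, quantile normalization and summary of probes by RMA compress differences of dim probe sets. No probe could be tested against background. Names came from an old platform annotation (1452 probe sets with 1 gene, 1108 genes) and were updated by gene ID from RefSeq, whose assembly need not be that of the array design, so no coordinates are given. Of 14 RefSeq genes with a tubulin name, 9 have a probe set here and the other 5 were not analysed here.

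CL was tested against CC with lmFit and eBayes (limma 3.58.1, R 4.3.3) on all 6 arrays, two-sided, without a block or filter, with Benjamini-Hochberg adjustment over all probe sets and a threshold of 0.05. SE is the moderated standard error. List genes were represented by their brightest probe set, and in each list at most the 4 with the smallest p are named as examples. The dim cell division genes, KIN9, TUBG2, tan1, kn1, knox7 and the tissue markers were named outside that rule, after their values were seen. The cell division list leaves out umi11, matched by the word cyclotide alone. The replicates were separate biological samples per the labels. The limma fit on differences between probe sets of 1 gene was chosen after seeing the data, in place of a fit against 1 common probe set that was set aside because its differences all share that probe set's error. The tubulin genes and lists were chosen with earlier results of these data known. In 3 simulated data sets of 17555 probe sets, 200 were changed in each. There 14% of log2 changes of 0.5, 74% of those of 1 and 98.7% of those of 2 were recovered. In the data 31.1% of all probe sets were called, which makes the adjusted threshold less strict than in the simulation. These shares therefore do not carry over to the 5 tubulin probe sets that did not pass, where small changes may still be missed.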

Additional observations from a re-analysis of the deposited data

How the results depend on the processing

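The tubulin count of 11 falls was 9 to 14 when each array was left out, 9 with a replicate block, 10 with array weights, 12 with array medians centred, and 11 with an intensity trend, robust variance, quantile normalization or without the dimmest 25% of probe sets, and 9 at an adjusted p of 0.01. Without the dimmest 50% it was 5, since only 7 tubulin probe sets were kept. No tubulin probe set rose under any of these. By gene 7 of 10 fell with the brightest probe set or the mean of probe sets, adjusted over genes. Neither scaling turned the sign of a called probe set; TUA1 Zm.13346.2.A1_at, not called, was 0.10 after quantile normalization and -0.089 to 0.089 with each array left out. The call of tua6 was gained with centred medians (adjusted p = 0.0452) and quantile normalization (0.0374), but not with the replicate block (0.145) or array weights (-0.25, 0.0746). The dim tub5 probe set lost its call with the replicate block (change -1.83, adjusted p = 0.0662), quantile normalization (-1.74, 0.0518) and array weights (-1.14, 0.0664). The other tub5 probe set lost it with the block (-0.80, 0.0669), and array weights left it at -0.52 with its call (0.0438). Over all probe sets, 2668 lower and 2789 higher became 850 and 1020 with the replicate block, 4940 and 4388 with array weights and 867 and 1126 at an adjusted p of 0.01; 1656 were lower without the dimmest 50%, where fewer are tested. With each array left out they were 1082 to 2865 lower and 1308 to 2818 higher. Same-numbered arrays of CL and CC deviated oppositely from their section means (r = -0.54, -0.35 and -0.39 over probe sets). The main fit did not take the numbers to pair the samples. These correlations cannot show whether same-numbered pieces came from the same leaves, and if they did, the counts with the replicate block would apply. The difference in change of tub3 and TUA1 was -1.99 to -1.698 with each array left out. The causes were not tested, and signal over background could not be assessed.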
